A study of Trichoderma guizhouense with 100 samples.

Results

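The genes described here were those of Trichoderma guizhouense NJAU4742, a filamentous fungus that degrades plant biomass, whose deposited annotation named a protease, peptidase or proteinase. Of 180 rows with one of these words, 16 were left out because they named the proteasome, signal peptidase or a mitochondrial protein, which left 164 members of 11244 genes. The rule used no measured value, though it was set with earlier results of these data known. The members were grouped into 11 catalytic classes from the words of their annotation alone.

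The study asked how the fungus regulates its response to xylan, to cellulose and to the loss of a carbon source, and which part transcription factors play in it. RNA was sequenced from the wild type NJAU4742 (WT) and from deletion mutants of Tgxyr1 (∆Tgxyr1), Tgace1 (∆Tgace1) and Tgace2 (∆Tgace2), each of which carried a hygromycin resistance cassette in place of the target gene. Mycelium of every strain was grown on glucose, sampled at 0 h, and moved to xylan or to Avicel (microcrystalline cellulose) for 4 h, 24 h or 72 h. For ∆Tgxyr1 and WT, further mycelium was starved of carbon (CS, medium with none added) for the same times. This gave 10 groups of ∆Tgxyr1, 7 of ∆Tgace1, 7 of ∆Tgace2 and 10 of WT, 34 groups and 100 libraries in all, with 3 libraries a group, or 2 in WT after 4 h and after 72 h of CS. The minimal medium held ammonium as its nitrogen source. No strain with the cassette alone and no complemented strain was analysed here, so what the 3 mutants share cannot be told apart from the cassette and the transformation.

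Proteases cut proteins within the chain, and peptidases then release single amino acids, dipeptides or tripeptides from the ends. Filamentous fungi secrete a part of these enzymes, where they open up protein outside the cell as a source of nitrogen and carbon, and keep others in the vacuole, where the cell's own protein is turned over. Further members act in the cytosol or at membranes, where they mature other proteins or remove ubiquitin and its relatives.

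Values are RPKM, reads scaled to the length of the transcript and to the mapped reads of the library, as deposited. Differences are in log2(RPKM + 1), with the standard error (SE) after the ± sign, from 1 limma model of all 34 groups. A call required that the p, adjusted by Benjamini-Hochberg over all 10026 genes tested, did not exceed 0.01, that the difference was 2 or more in size, and that the group with more transcript averaged over 2 RPKM. Differences on this scale understate changes of genes near 0 RPKM. Lower RPKM in every hypha and fewer hyphae with the transcript cannot be told apart in such bulk samples. The study calls the libraries of a group biological replicates, while neither it nor the labels say whether these grew in separate flasks, and the p-values measure the spread between them.

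The deposited values give no read counts, and the worth of 1 read in RPKM differed by up to 7.36-fold between libraries. The summed RPKM of a library ran between 553844 and 3295520. A difference in RPKM therefore need not match a difference in share of that sum. The deleted genes matched the labels, with TgXyr1 (OPB38038) at no more than 0.168 RPKM in ∆Tgxyr1 against 1.29 to 143 RPKM in WT, and TgACE2 (OPB44681) at no more than 0.163 RPKM in ∆Tgace2 against 1.59 to 8.09 RPKM in WT. TgACE1 was not analysed here. In 14 libraries the values correlated better with another group than with their own. Among these were all 3 WT libraries on Avicel at 72 h, of which replicate 2 stood nearest to WT under CS at 72 h. All 3 libraries of ∆Tgace1 on glucose were among them too, and replicate 3 correlated least with its own group (0.905). Where a call rests on 1 of the 14 libraries, the value without it is given.

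Of the 164 members, 140 passed the filter of more than 1 RPKM in at least 2 libraries. The other 24 reached at most 1.02 RPKM in any library (OPB40720, an X-Pro dipeptidyl peptidase), and the serine peptidase OPB42694 of family S28 was listed at 0 in all 100 libraries. Among the untested were 6 of 11 serine carboxypeptidases and S28 peptidases and 6 of 18 dipeptidyl and prolyl peptidases, among them OPB40788, annotated as dipeptidyl peptidase IV. Every metalloendopeptidase (13), cysteine protease (16), metallocarboxypeptidase (9) and other serine peptidase (12) was tested.

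Levels, which RPKM gives per length of transcript, spanned several orders of magnitude. The highest mean over the 34 groups, 2506 RPKM, belonged to OPB37474, annotated as a peptidase of family M48 like Ste24p, which in yeast trims proteins that carry a prenyl group. Its group means ran between 99.04 RPKM (WT under CS at 72 h) and 12555 RPKM (∆Tgxyr1 on xylan at 24 h). As a share of summed RPKM, OPB37474 averaged 0.0171% and 0.449% in these groups. After it came the trypsin-like protease OPB36132, whose mean rested on the 4 h groups, and the subtilisin-like protease OPB35950. Some members stayed high throughout: the aspartyl protease OPB36755 had group means between 272 and 913 RPKM and was called in none of the 9 WT comparisons with 0 h. OPB42244, a methionine aminopeptidase of the kind that removes the first residue of new proteins, and OPB38955, a homolog of the vacuolar carboxypeptidase Y, were likewise called in none of the 9. In WT, 81 of the 140 tested members were called in none of these 9 comparisons, against 68.5% of all genes.

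The transfer from glucose was followed at 4 h by higher transcript levels of members of several catalytic types in all 3 media. On xylan at 4 h, 26 members were higher than at 0 h, against 6.33% of all genes tested, and 8 were lower, against 4.23%. On Avicel at 4 h, 19 members were higher (4.19% of all genes) and 6 lower (2.81%). Under CS at 4 h, 21 were higher (3.78%) and 7 lower (3.30%). The median log2 difference of the members was 0.28 on xylan, 0.25 on Avicel and 0.23 under CS, against 0.03, 0.00 and 0.00 over all genes tested. These comparisons share the 3 WT libraries at 0 h, which the members common to them therefore share as well.

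**Figure D1:**
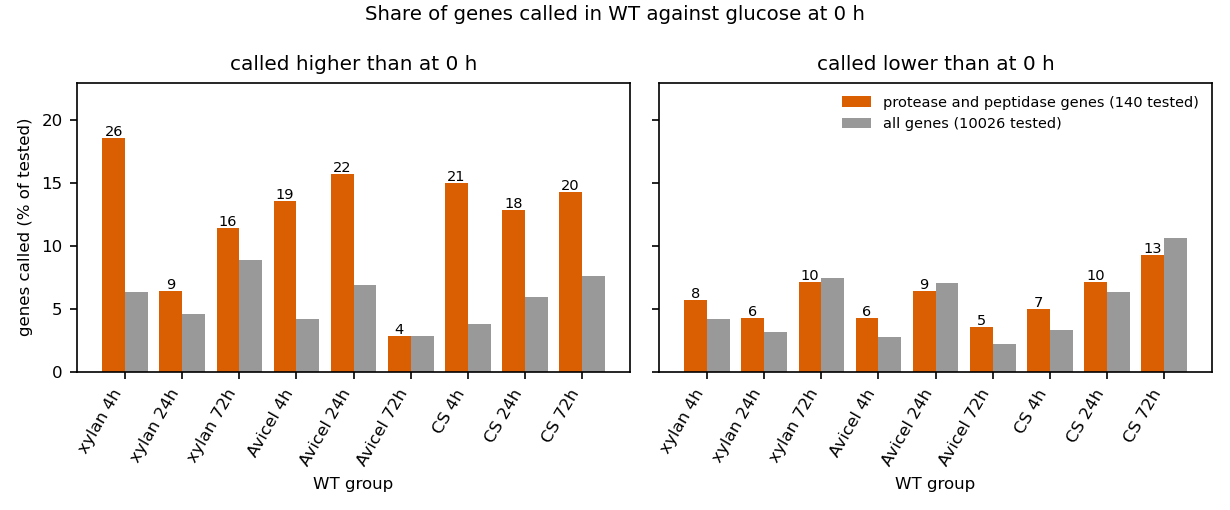
Share of genes called higher (left) and lower (right) than at 0 h in each WT group, in percent of the genes tested, for the 140 tested protease and peptidase genes (orange, with their number above the bar) and for all 10026 genes tested (grey). The orange bars for higher calls are tallest on xylan at 4 h (26 genes), and on Avicel at 72 h the bar of 4 genes is level with the 2.85% of all genes.

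At 4 h, 18 members were called higher in all 3 media (2.86% of all genes) and 5 lower (2.04%). The 18 were of different catalytic types: 4 aspartic proteases, 3 subtilisins, 2 trypsin-like proteases, 4 metalloendopeptidases, 2 metallocarboxypeptidases and 3 metalloaminopeptidases or dipeptidases. The trypsin-like protease OPB36132, a serine endopeptidase of the type that cuts after arginine and lysine, was the most abundant of them. It had 9047, 7390.0 and 8459 RPKM on xylan, 4168, 6442 and 5536 RPKM on Avicel and 3974 and 4075 RPKM under CS at 4 h, against 5.59, 6.02 and 5.05 RPKM at 0 h. Every 4 h library lay far above every 0 h library. The log2 difference was 10.30 ± 0.56, adjusted p = 1.96e-25 on xylan, 9.66 on Avicel and 9.27 under CS.

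OPB37691, annotated as the alkaline proteinase prb1, a subtilisin known in Trichoderma atroviride from attack on other fungi, behaved alike at 4 h. Its values were 1584, 999 and 1763 RPKM on xylan, 1037, 1264 and 1024 RPKM on Avicel and 927 and 922 RPKM under CS, against 0.926, 0.213 and 0.676 RPKM at 0 h. The groups did not overlap, with a log2 difference of 9.80 ± 0.69, adjusted p = 1.01e-19 on xylan. The second trypsin-like protease, OPB42272, had 667, 434 and 724 RPKM on xylan, 169, 419 and 283 RPKM on Avicel and 296 and 281 RPKM under CS at 4 h, against 0.395, 0.411 and 0.215 RPKM at 0 h. It was thus near 0 RPKM on glucose and rose in every medium (8.80 ± 0.44, adjusted p = 1.21e-26 on xylan), and no library of the groups overlapped.

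Of the carboxypeptidases, which trim residues from the end of a chain, OPB44490 and OPB36786 rose beside the endopeptidases in all 3 media. Carboxypeptidase A (OPB44490) had 447, 307 and 463 RPKM on xylan at 4 h, against 1.42, 0.78 and 1.45 RPKM at 0 h (7.51 ± 0.39, adjusted p = 3.75e-26). The zinc carboxypeptidase OPB36786 had 48.5, 36.99 and 51.6 RPKM on xylan at 4 h, against 0.495, 0.306 and 0 RPKM at 0 h (5.21 ± 0.60, adjusted p = 2.23e-11). Both were also called on Avicel and under CS at 4 h, without overlap. Among the metalloendopeptidases, which hold a zinc ion at the active site, the elastinolytic metalloproteinase OPB40519 had 268, 142 and 309.6 RPKM on xylan at 4 h, against 1.51, 1.18 and 1.85 RPKM at 0 h (6.52 ± 0.50, adjusted p = 5.63e-18). Neutral protease 2 (OPB36603) had 66.97, 40.04 and 71.4 RPKM at the same time, against 0.382, 1.05 and 1.25 RPKM at 0 h (4.98 ± 0.46, adjusted p = 9.65e-15).

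**Figure D2:**
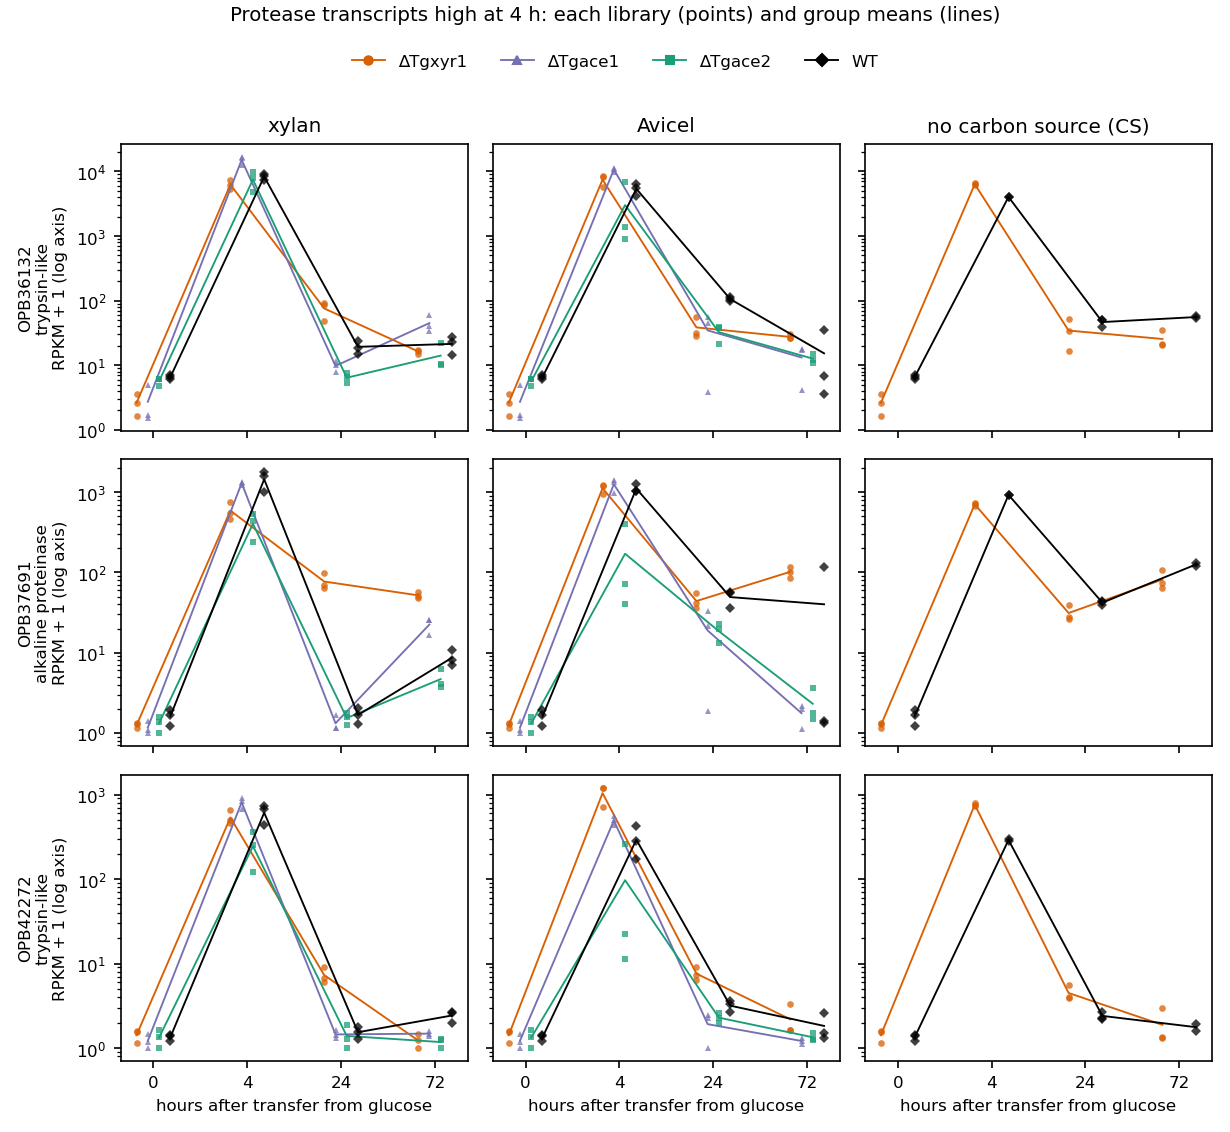
RPKM + 1 (log axis) of the trypsin-like proteases OPB36132 and OPB42272 and the alkaline proteinase OPB37691 against hours after transfer (evenly spaced, not to scale), by medium, with 1 point per library and lines through the group means of ∆Tgxyr1, ∆Tgace1, ∆Tgace2 and WT. All strains peak at 4 h, and in WT OPB42272 reaches 667, 434 and 724 RPKM on xylan at 4 h against 0.395, 0.411 and 0.215 RPKM at 0 h.

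SUB9 (OPB41391), a subtilisin, had 134, 136 and 131 RPKM on xylan, 39.9, 26.2 and 11.3 RPKM on Avicel and 66.1 and 69.7 RPKM under CS at 4 h, against 0.109, 0 and 0.119 RPKM at 0 h. It was called in all 3 media, and its level differed between them at 4 h: Avicel was below xylan without overlap (-2.49 ± 0.39, adjusted p = 2.17e-06). Such differences between media were few at 4 h. On Avicel against xylan no member was higher (0.0898% of all genes) and 4 were lower (0.569%). On xylan against CS 3 were higher (0.858%) and none lower (0.259%), and the 3 became 1 without WT on xylan at 4 h replicate 2 or without WT under CS at 4 h replicate 2. On Avicel against CS no member was called in either direction (0.00997% and 0% of all genes).

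Besides SUB9, the lower members on Avicel than on xylan at 4 h included OPB46047, annotated as an alkaline serine protease PR1 or allergen F18-like, a subtilisin. It had 2.76, 7.54 and 2.73 RPKM on Avicel, against 38.6, 35.8 and 39.2 RPKM on xylan (-2.98 ± 0.63, adjusted p = 0.000337). Under CS it had 1.05 and 0.621 RPKM, so that the order at 4 h ran with xylan highest and CS lowest, with no overlap between these groups. Its rise on Avicel at 4 h against 0 h (2.06 ± 0.63, adjusted p = 0.0058) was lost without any 1 of 4 libraries, with values down to 1.66 without WT on Avicel at 4 h replicate 2.

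Peptidases of kinds known to act inside the cell were called as well. Dipeptidyl peptidase III (OPB46817), a zinc enzyme that releases dipeptides, had 129.5, 118 and 136 RPKM on xylan at 4 h, against 18.96, 19.3 and 13.8 RPKM at 0 h (2.82 ± 0.29, adjusted p = 2.79e-13). OPB42000, an oligopeptidase of family M3, had 124, 114 and 127 RPKM at the same time, against 19.6, 19.2 and 14.5 RPKM at 0 h (2.72 ± 0.35, adjusted p = 1.08e-09). Both were called in all 3 media at 4 h. The vacuolar carboxypeptidase Cps1 (OPB43067), whose yeast counterpart takes part in the vacuole's breakdown of peptides, had 193, 205 and 203 RPKM on xylan at 4 h, against 33.1, 32.9 and 27.02 RPKM at 0 h (2.66 ± 0.24, adjusted p = 7.83e-15), and was called under CS as well. Its 3 Avicel libraries at 4 h, 114, 121 and 136 RPKM, lay above those at 0 h without reaching the fold limit.

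At 24 h the media parted. Of the 18 members higher at 4 h in all 3 media, 13 were called higher than at 0 h on Avicel at 24 h and 11 under CS, against 2 on xylan, the aspartic proteases OPB40378 and OPB45209. Of all 287 genes higher at 4 h in all 3 media, members included, 224 (78.0%) were called higher on Avicel at 24 h and 222 (77.4%) under CS, against 105 (36.6%) on xylan, so the smaller count on xylan was seen over all such genes as well. In all, 22 members were higher on Avicel at 24 h (6.88% of all genes) and 18 under CS (5.97%), against 9 on xylan (4.58%). Lower members numbered 9 on Avicel (7.05%), 10 under CS (6.36%) and 6 on xylan (3.14%). The median log2 difference of the members from 0 h was 0.25 on Avicel, 0.25 under CS and -0.04 on xylan, against 0.06, 0.00 and -0.01 over all genes. Set directly against each other at 24 h, Avicel was above xylan for 15 members (4.66% of all genes) and below it for 8 (7.78%), and xylan was above CS for 8 (7.37%) and below it for 12 (4.53%). On Avicel against CS only OPB40519 was higher (0.229%) and no member was lower (0.180%).

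The alkaline proteinase OPB37691 shows the split. On Avicel at 24 h it had 56.4, 53.7 and 34.9 RPKM and under CS 38.5, 41.8 and 42.7 RPKM, against 0.676, 0.289 and 1.05 RPKM on xylan, where its libraries overlapped those at 0 h. Avicel was above xylan by 4.88 ± 0.69, adjusted p = 1.23e-08, and xylan differed from CS by -4.68 ± 0.69, adjusted p = 3.69e-08. OPB36132 likewise had 96.1, 114 and 105 RPKM on Avicel at 24 h, against 17.7, 14.03 and 23.1 RPKM on xylan (2.48 ± 0.56, adjusted p = 0.000108). For the zinc carboxypeptidase OPB36786 the values were 29.4, 35.7 and 27.2 RPKM on Avicel, against 0.78, 1.81 and 1.30 RPKM on xylan (3.81 ± 0.60, adjusted p = 1.55e-07). OPB40519 had 38.5, 38.9 and 29.6 RPKM on Avicel, against 0.555, 0.51 and 0.702 RPKM on xylan and 4.96, 5.57 and 4.84 RPKM under CS at 24 h. Its Avicel libraries lay above the others without overlap (4.52 against xylan, 2.57 against CS).

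Only 4 of the 18 were called at 24 h in none of the media: OPB42272, the aminopeptidase Y OPB39170, and the aspartic proteases OPB43481 and OPB44618, the last pair chosen after their values were seen. OPB43481 was listed at 0 in the 3 libraries at 0 h, and had 22.04, 16.6 and 21.9 RPKM on xylan at 4 h (adjusted p = 3.79e-12). At 24 h on xylan it was listed at 0 in all 3 libraries. Pepsin-like aspartic proteases such as this one act best in acid.

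The aspartic protease OPB40378 was higher on xylan at 24 h too, with 76.2, 60.1 and 81.2 RPKM, against 6.10, 5.63 and 3.99 RPKM at 0 h (3.56 ± 0.48, adjusted p = 5.49e-09). It was highest on xylan at 4 h, with 206, 236 and 186 RPKM. For OPB45209 the 3 libraries at 0 h differed, at 2.17, 2.51 and 13.8 RPKM, with replicate 3 apart from the others. On xylan it had 34.5, 38.5 and 27.8 RPKM at 24 h, still above all of these (2.65 ± 0.31, adjusted p = 8.39e-11). Without WT on glucose replicate 1 its calls on Avicel were lost, at 1.94 for 4 h and 1.99 for 24 h.

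A further 16 members were not called at 4 h and were higher later, against 10.1% of all genes. OPB39078, an aspartyl protease, had the largest difference of these, with 1.59, 1.27 and 1.43 RPKM at 4 h, 1.92, 2.46 and 1.85 RPKM at 24 h and 103, 116 and 91.4 RPKM at 72 h on xylan, against 1.94, 1.10 and 1.17 RPKM at 0 h. Under CS it had 130.0, 132 and 127 RPKM at 24 h and 306 and 292 RPKM at 72 h. It was thus raised at 24 h under CS (5.78 ± 0.45, adjusted p = 1.4e-17) and at 72 h on xylan (5.45 ± 0.45, adjusted p = 3.82e-17), and on xylan at 24 h its log2 difference was 0.37. On Avicel at 24 h it stood between, with 38.05, 44.8 and 26.6 RPKM (3.95 ± 0.45, adjusted p = 1.71e-11).

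The subtilisin-like protease OPB44085 had 13.6, 15.1 and 14.8 RPKM at 24 h and 27.8 and 23.95 RPKM at 72 h under CS, against 0.573, 1.13 and 0.673 RPKM at 0 h (3.91 ± 0.30, adjusted p = 1.42e-17 at 72 h). The aspartic endopeptidase ctsD (OPB46230), named after its values were seen, had 71.6 and 66.01 RPKM under CS at 72 h, against 7.14, 6.07 and 6.46 RPKM at 0 h (3.21 ± 0.47, adjusted p = 2.85e-08). For both genes the CS libraries at 72 h did not overlap those at 0 h. The tripeptide peptidase OPB43582, of the kind that releases tripeptides, had 24.05, 20.01 and 16.98 RPKM on Avicel and 24.5, 24.5 and 21.9 RPKM under CS at 24 h, against 1.15, 2.08 and 2.05 RPKM on xylan, where it overlapped its values at 0 h (2.96 on Avicel against xylan).

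At 72 h, 16 members were higher on xylan (8.94% of all genes) and 10 lower (7.44%), and under CS 20 were higher (7.62%) and 13 lower (10.6%). On Avicel at 72 h, 4 were higher (2.85%) and 5 lower (2.21%), where the libraries did not resemble each other. Without WT on Avicel at 72 h replicate 3 the count of higher members became 8, and without replicate 2 that of lower members became 3. For OPB36786 the 3 libraries held 2.66, 146 and 0.325 RPKM, and its call of 2.84 became 0.82 without replicate 2. OPB36280 held 1132, 6.37 and 1626 RPKM in the same libraries, and here too replicate 2 stood at the level of WT under CS at 72 h (10.3 and 9.83 RPKM). Over any of the 3 times, 37 members were higher and 12 lower on xylan (13.5% and 9.19% of all genes), 29 higher and 9 lower on Avicel (8.67% and 7.60%), and 31 higher and 16 lower under CS (10.3% and 11.7%).

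**Figure D3:**
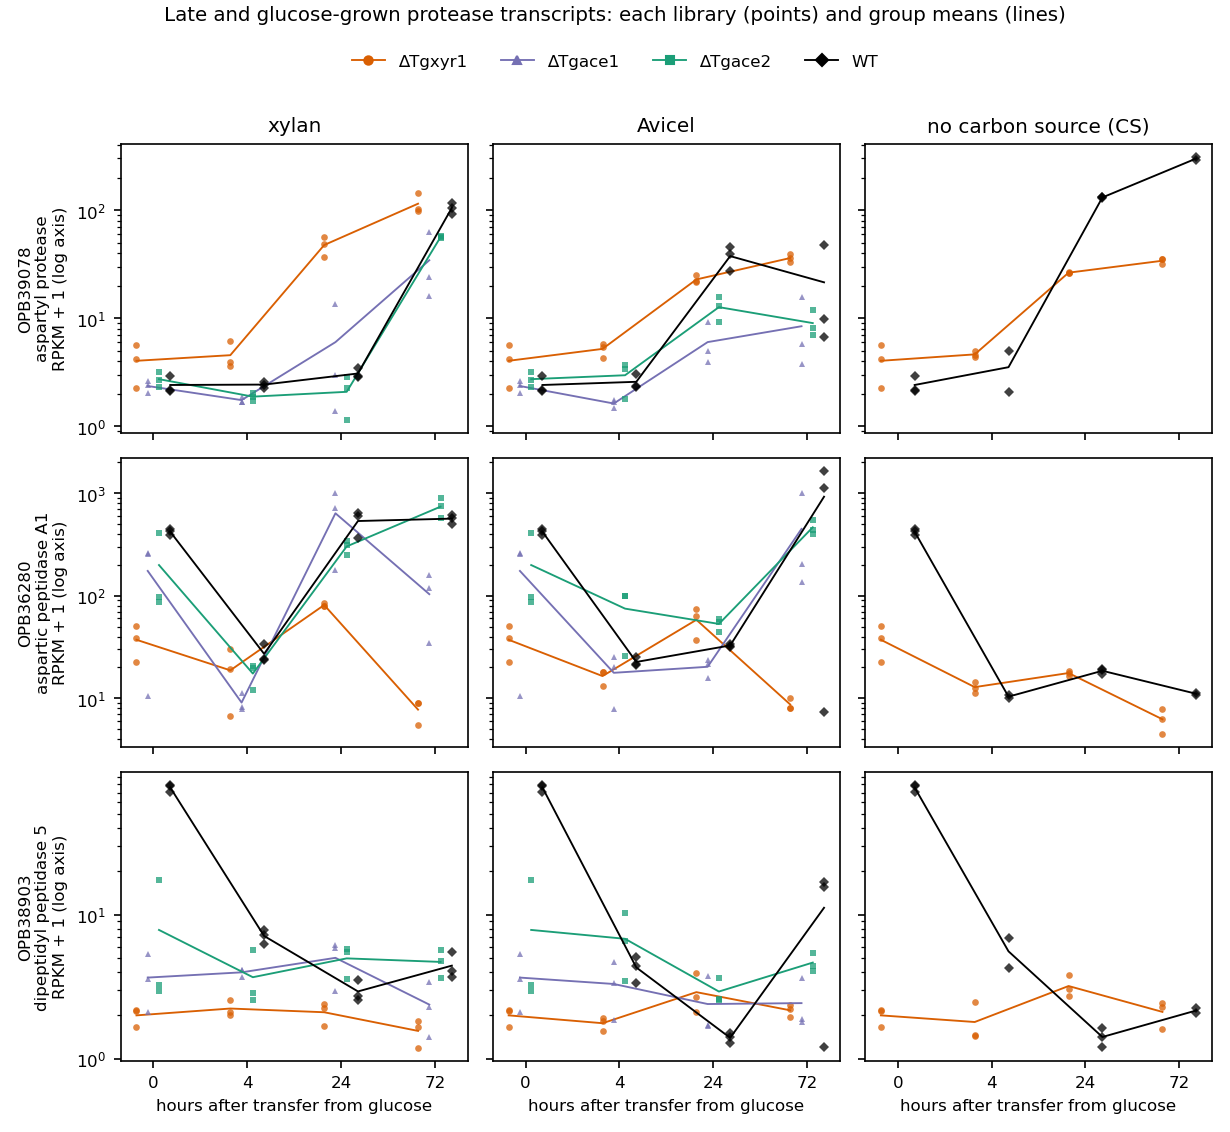
RPKM + 1 (log axis) of the aspartyl protease OPB39078, the aspartic peptidase OPB36280 and dipeptidyl peptidase 5 (OPB38903) against hours after transfer (evenly spaced, not to scale), by medium, with 1 point per library and lines through the group means of ∆Tgxyr1, ∆Tgace1, ∆Tgace2 and WT. OPB39078 climbs late, OPB36280 is high in WT on xylan at 24 h and 72 h but not under CS, and OPB38903 stands at 69.9, 77.4 and 77.3 RPKM in WT at 0 h and below in each mutant.

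Other members had less transcript than at 0 h in most WT groups. Falls below the 0 h level were called in 5 or more WT groups for 8 members, against 3.59% of all genes. Dipeptidyl peptidase 5 (OPB38903), a serine enzyme of the type that removes dipeptides, had 1.72, 1.56 and 2.51 RPKM on xylan, 0.501, 0.406 and 0.286 RPKM on Avicel and 0.213, 0.41 and 0.628 RPKM under CS at 24 h, against 69.9, 77.4 and 77.3 RPKM at 0 h. It fell in all 9 WT groups without overlap, on Avicel at 24 h with a log2 difference of -5.76 ± 0.48, adjusted p = 1.57e-16. The oligopeptidase MepB (OPB47030) had 0.524, 0 and 0.363 RPKM on xylan at 72 h, against 45.9, 52.1 and 40.9 RPKM at 0 h (-5.20 ± 0.40, adjusted p = 1.03e-18), and was called lower in all 9 groups as well. It belongs to the same family M3 as OPB42000, whose transcript rose.

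The zinc metalloprotease OPB45773, among the most abundant members on glucose, had 47.4, 49.6 and 40.1 RPKM on xylan at 72 h, against 796, 849 and 779.6 RPKM at 0 h (-4.12 ± 0.36, adjusted p = 2.46e-16). It was lower in 8 of the 9 groups, of which Avicel at 72 h lost its call without WT on Avicel at 72 h replicate 2 (-1.70). The calpain-like protease OPB39123, from a family of calcium-dependent cysteine proteases, had 27.3, 28.8 and 28.9 RPKM on xylan at 24 h, against 314, 321 and 313 RPKM at 0 h (-3.43 ± 0.44, adjusted p = 1.15e-09). Its fall on xylan was called at all 3 times. On Avicel its values at 24 h, 82.7, 83.6 and 94.6 RPKM, also lay below those at 0 h, without reaching the fold limit.

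The aspartyl protease OPB37918 was called lower in all 9 groups, but its libraries at 0 h, at 46.7, 47.99 and 322 RPKM, differed among themselves, with replicate 3 highest. On xylan at 24 h it had 9.76, 6.62 and 6.62 RPKM (-3.41 ± 0.33, adjusted p = 5.85e-14). Under CS at 72 h the log2 difference of -2.32 became -1.41 without WT on glucose replicate 3 and lost its call. The aspartic peptidase OPB36280 was lower at 4 h in all 3 media, with 22.98, 32.6 and 22.8 RPKM on xylan, against 444, 422 and 391 RPKM at 0 h (-3.97 ± 0.86, adjusted p = 6.7e-05). At 24 h it had 31.6, 30.5 and 33.1 RPKM on Avicel, against 594, 366 and 641 RPKM on xylan, where its libraries overlapped those at 0 h. The difference of Avicel from xylan was -3.99 ± 0.86, adjusted p = 5.66e-05.

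Between media at 72 h, 4 members were higher and 9 lower on Avicel than on xylan (2.83% and 4.82% of all genes), and 9 were higher and 7 lower on xylan than under CS (8.56% and 2.15%). The counts on Avicel against xylan became 1 and 2 higher without WT on Avicel at 72 h replicate 1 or 3, and 10 higher and 15 lower without replicate 2. Some members were called higher on xylan alone or mainly there. OPB41211, annotated as a vacuolar carboxypeptidase Cps1, had 4.31, 5.19 and 4.97 RPKM at 4 h, 11.7, 11.6 and 16.6 RPKM at 24 h and 39.5, 32.9 and 51.4 RPKM at 72 h on xylan, against 0.668, 0.206 and 0.366 RPKM at 0 h. The groups did not overlap, and the last differed from 0 h by 4.89 ± 0.27, adjusted p = 1.8e-25. On Avicel at 72 h it had 2.35, 1.11 and 6.14 RPKM, with a log2 difference from xylan of -3.49 ± 0.27, adjusted p = 9.02e-18. Against CS at 72 h xylan was higher by 4.83 ± 0.30, adjusted p = 2.17e-22. Summed RPKM at 72 h was 2506020, 2138220 and 2219660 on xylan, against 605316 and 553844 under CS. As a share of that sum, the difference from CS was therefore smaller for OPB41211. The call at 4 h (2.05) was lost without WT on glucose replicate 2 (1.94).

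OPB41671, an ATP-dependent Clp protease, a type that unfolds proteins before cutting them, had 181, 179 and 169 RPKM on xylan at 72 h, against 27.6, 27.6 and 20.0002 RPKM at 0 h (2.78 ± 0.21, adjusted p = 3.37e-19). Xylan was above CS at 72 h for it by 3.02 ± 0.23, adjusted p = 2.39e-18. As shares of summed RPKM, both differences of OPB41671 were smaller. OPB37041, annotated as a ubiquitin-specific protease of carbon catabolite repression, whose counterpart CreB in Aspergillus nidulans removes ubiquitin from proteins, had 134, 115 and 104 RPKM on xylan at 24 h, against 25.3, 26.1 and 26.9 RPKM at 0 h (2.12 ± 0.26, adjusted p = 3.68e-10). OPB47079, of the peptidase family C48 that releases the ubiquitin-like protein SUMO, had 718, 695 and 645 RPKM on xylan at 72 h, against 63.7, 70.7 and 107 RPKM at 0 h (3.11 ± 0.32, adjusted p = 2.39e-13). For all 3 genes the libraries of these groups did not overlap.

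OPB46440, related by its annotation to Kex2, the yeast protease that cuts protein precursors on their way out of the cell, was listed at 0 in the 3 libraries at 0 h and had 12.3, 2.34 and 17.4 RPKM on xylan at 24 h (adjusted p = 1.4e-10). In no other WT group did a library exceed 2.32 RPKM. OPB45864, a tripeptide peptidase, had 0.624, 1.21 and 0.556 RPKM on Avicel, against 52.1, 34.9 and 67.1 RPKM on xylan at 24 h (-4.84 ± 0.71, adjusted p = 3.32e-08). At 0 h it had 13.1, 10.4 and 12.3 RPKM, above the Avicel and CS groups at 24 h, which were called lower.

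Both abundant members OPB37474 and OPB35950 were higher in one WT group and lower in another. OPB35950, a subtilisin-like protease, had 4229, 3989.7 and 4279.9 RPKM on xylan and 68.7 and 63.98 RPKM under CS at 72 h, against 736, 719 and 522 RPKM at 0 h. It rose on xylan (2.67 ± 0.41, adjusted p = 5.49e-08) and fell under CS (-3.28 ± 0.46, adjusted p = 6.83e-09). Xylan exceeded CS at 72 h by 5.95 ± 0.46, adjusted p = 3.24e-18, a difference that was smaller as a share of summed RPKM. OPB37474 had 95.8 and 102 RPKM under CS at 72 h, against 1352, 1479.5 and 1109 RPKM at 0 h (-3.71 ± 0.44, adjusted p = 6.39e-11). Its rise on xylan at 4 h, to 5460.4, 5897 and 4672 RPKM (2.03 ± 0.39, adjusted p = 1.18e-05), lost its call without WT on glucose replicate 3 (1.91) and without WT on xylan at 4 h replicate 2 (1.95).

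**Figure D4:**
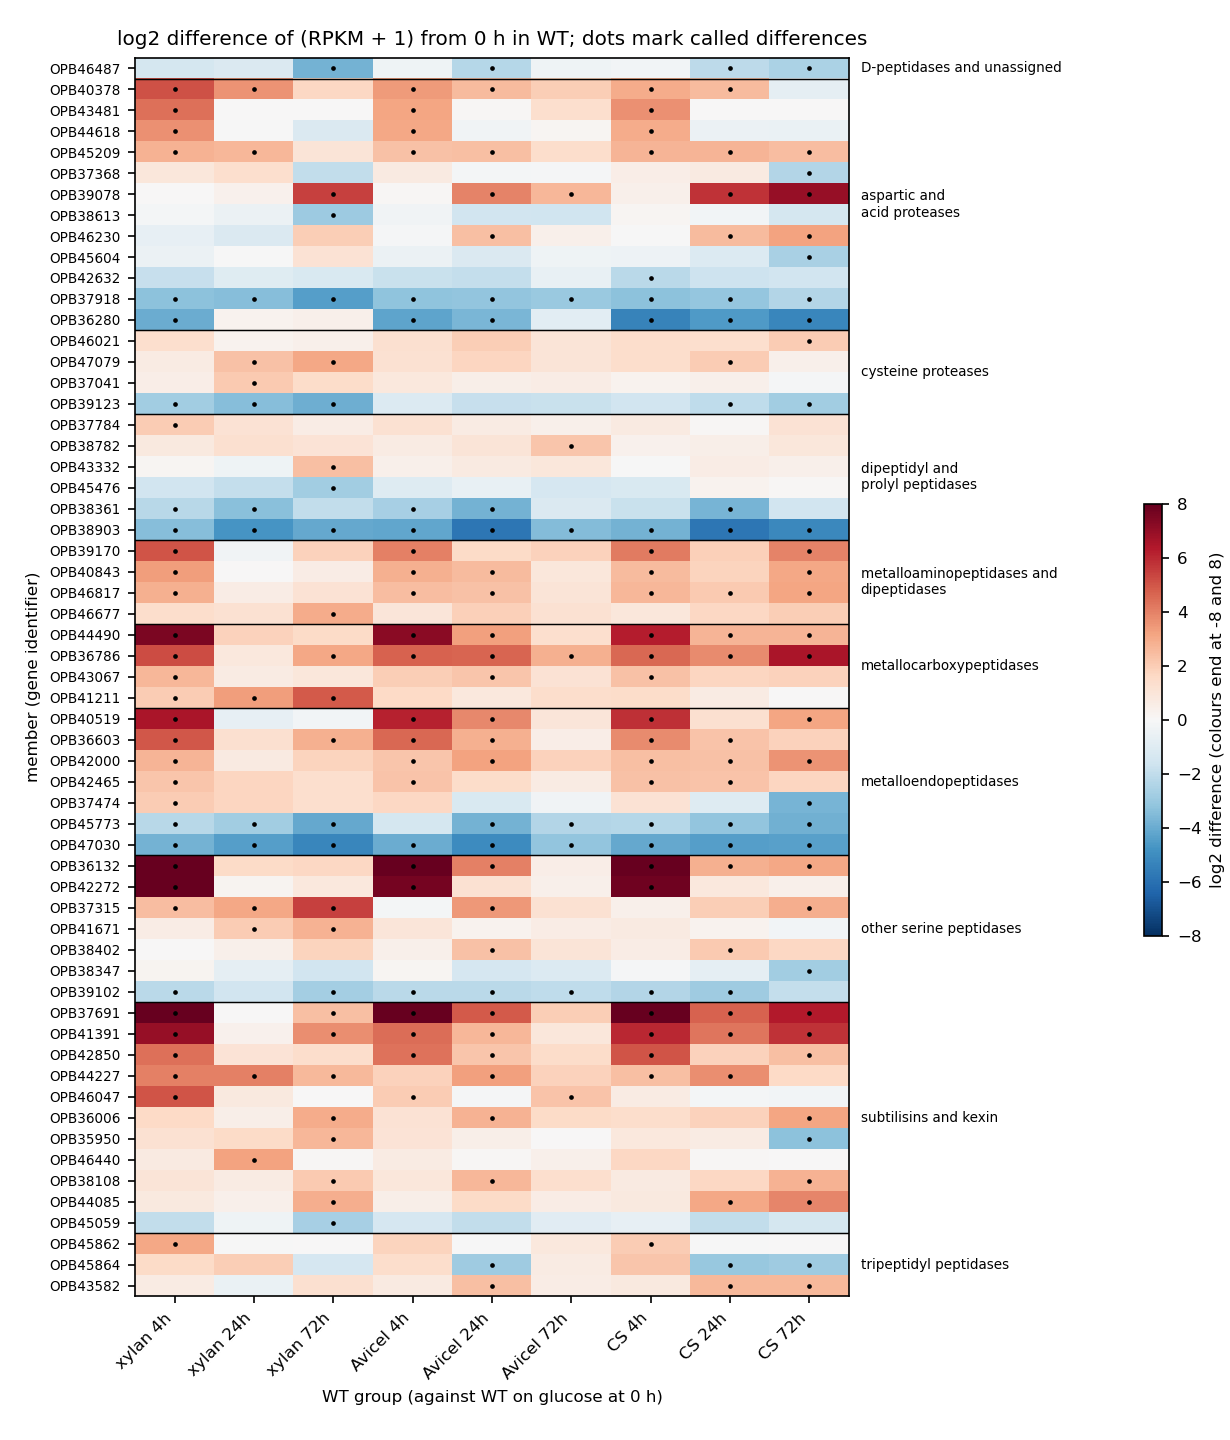
Log2 difference of (RPKM + 1) from 0 h in the 9 WT groups (columns) for the 59 members called in at least 1 of them (rows, by catalytic class), with a dot on each called difference and colours that end at a difference of 8 in either direction. The 4 h columns hold the deepest red among the metallocarboxypeptidases, other serine peptidases and subtilisins, and OPB38903 and OPB47030 are blue in all 9 columns.

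By class, subtilisins and kexin held the most risers over the 9 WT groups: 10 of 20 tested members were higher in at least 1 group and 2 lower. Aspartic and acid proteases were divided, with 6 of 18 higher and 6 lower. Metallocarboxypeptidases had 4 of 9 higher and none lower, metalloendopeptidases 5 of 13 higher and 3 lower, and other serine peptidases 5 of 12 higher and 2 lower. Of the cysteine proteases 3 of 16 were higher and 1 lower, of the metalloaminopeptidases and dipeptidases 4 of 20 were higher and none lower, and none of the 5 tested serine carboxypeptidases and S28 peptidases was called. Over all genes, 17.5% were higher and 15.1% lower in at least 1 of the 9 groups, against 42 and 19 of the 140 members. On xylan at 4 h the median log2 difference was 1.50 for the metallocarboxypeptidases and -0.45 for the dipeptidyl and prolyl peptidases. No test between classes was made.

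The mutants were set against WT in the same medium at the same time. Several peptidases were lower in all 3 mutants, among them the serine protease OPB37315, the S8 peptidase OPB36006 and, on glucose, dipeptidyl peptidase 5 (OPB38903). The PR1-like protease OPB46047 was higher than WT in ∆Tgace1 on xylan. Over their conditions, 33 members were higher and 27 lower in ∆Tgxyr1 (21.0% and 17.4% of all genes), 22 higher and 23 lower in ∆Tgace1 (12% and 15.5%), and 11 higher and 14 lower in ∆Tgace2 (12.3% and 8.46%). At 24 h, ∆Tgxyr1 had 13 members higher and 8 lower on xylan (7.49% and 5.59% of all genes), 10 higher and 6 lower on Avicel (8.50% and 4.79%), and 4 higher and 6 lower under CS (5.64% and 2.65%). At 24 h ∆Tgace1 had 7 higher and 6 lower on xylan (4.42% and 5.96%), and 2 higher and 10 lower on Avicel (4.16% and 3.83%). At 24 h ∆Tgace2 had 1 higher and 2 lower on xylan (1.48% and 1.73%), and 3 higher and 8 lower on Avicel (7.52% and 3.44%). For ∆Tgace1 on Avicel the count of lower members became 6, and that of higher members 4, without its replicate 1. Its higher count on xylan became 4 without its replicate 3, its higher count on Avicel became 1 without WT on Avicel at 24 h replicate 3, and that of ∆Tgace2 on Avicel became 5 without its replicate 3.

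Percentages in brackets are again shares of all genes tested. On glucose, ∆Tgxyr1 had 4 members higher (1.16%) and 3 lower (2.62%). There ∆Tgace1 had 4 members higher (1.87%) and 2 lower (2.45%), and ∆Tgace2 2 members higher (1.32%) and 2 lower (1.40%). At 4 h on xylan, ∆Tgxyr1 had 5 members higher (3.18%) and 6 lower (3.23%), ∆Tgace1 6 members higher (2.40%) and 3 lower (3.03%) and ∆Tgace2 3 members higher (2.39%) and 5 lower (2.40%). At 4 h on Avicel the counts were 5 members higher (2.60%) and 3 lower (2.41%) in ∆Tgxyr1, 5 members higher (2.53%) and 3 lower (2.03%) in ∆Tgace1 and 2 members higher (2.27%) and 6 lower (1.79%) in ∆Tgace2. At 72 h on xylan they were 6 members higher (5.39%) and 9 lower (6.51%) in ∆Tgxyr1, 6 members higher (3.30%) and 10 lower (9.35%) in ∆Tgace1 and 4 members higher (3.78%) and 4 lower (3.99%) in ∆Tgace2. Under CS, ∆Tgxyr1 had 5 members higher (2.94%) and 2 lower (2.20%) at 4 h and 5 members higher (5.44%) and 10 lower (3.61%) at 72 h. At 72 h on Avicel the counts were 5 members higher (5.09%) and 7 lower (5.47%) in ∆Tgxyr1, 4 members higher (3.26%) and 2 lower (3.37%) in ∆Tgace1 and 4 members higher (3.90%) and 2 lower (1.60%) in ∆Tgace2. With single WT libraries on Avicel at 72 h left out, these last ranged between 3 and 16 higher and up to 13 lower in ∆Tgxyr1, between 7 and 11 higher and 4 to 8 lower in ∆Tgace1, and 4 to 6 lower in ∆Tgace2. Replicate 2 gave the counts of 16 and 13 when left out, and replicate 1 that of 11.

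Of the other counts, 1 library changed several by more than 1.5 times. On glucose, higher members in ∆Tgxyr1 became 2 without WT on glucose replicate 1 or 2, lower members in ∆Tgace1 became 4 without its replicate 1 or 2, and lower members in ∆Tgace2 became 1 without its replicate 1. On Avicel at 4 h, higher members in ∆Tgxyr1 became 8 without WT replicate 2 or its own replicate 2. In ∆Tgace1 there, higher members became 3 without WT replicate 1 and lower members became 1 without WT replicate 1 or its own replicate 2. In ∆Tgace2 there, higher members became 1 without WT replicate 2 or its own replicate 2. On Avicel at 72 h, lower members in ∆Tgace1 became 1 without its own replicate 2, and higher members in ∆Tgace2 became 2 without its own replicate 1.

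Across the mutants, 10 members were lower in all 3, in at least 1 condition each (5.14% of all genes), and 6 were higher in all 3 (4.38%). The 3 mutants were compared with the same WT libraries. OPB37315, a serine protease, was lower in more conditions than any other member in ∆Tgace1 (5 of 7). On xylan at 72 h it had 0.214, 1.26 and 0.722 RPKM in ∆Tgxyr1, 1.43, 1.16 and 2.17 RPKM in ∆Tgace1 and 3.72, 2.84 and 1.36 RPKM in ∆Tgace2, against 135, 129 and 147 RPKM in WT. The mutants lay far below WT without overlap, with log2 differences of -6.36 ± 0.28, adjusted p = 2.03e-31 in ∆Tgxyr1, -5.76 ± 0.28, adjusted p = 5.52e-29 in ∆Tgace1 and -5.30 ± 0.28, adjusted p = 9.42e-27 in ∆Tgace2. On Avicel at 24 h it had 0.177, 0 and 0 RPKM in ∆Tgxyr1, 0.536, 0.198 and 0.163 RPKM in ∆Tgace1 and 0.284, 0.289 and 0.533 RPKM in ∆Tgace2, against 36.96, 29.6 and 34.4 RPKM in WT. ∆Tgxyr1 was also lower under CS, with 0.842, 0.213 and 0.468 RPKM at 72 h, against 24.9 and 20.7 RPKM in WT (-3.995 ± 0.31, adjusted p = 6.47e-18). On Avicel at 72 h its calls rested on 1 WT library: without WT on Avicel at 72 h replicate 2 the differences were -1.56 in ∆Tgxyr1, -1.42 in ∆Tgace1 and -1.49 in ∆Tgace2.

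OPB36006, a peptidase of the subtilisin family S8, was lower in ∆Tgxyr1 in 9 of 10 conditions. On Avicel at 24 h it had 1.27, 0.53 and 0.896 RPKM in ∆Tgxyr1, 0.412, 1.87 and 0.934 RPKM in ∆Tgace1 and 0.747, 0.765 and 1.53 RPKM in ∆Tgace2, against 33.3, 31.4 and 30.9 RPKM in WT. All 9 mutant libraries lay below the WT libraries, with log2 differences of -4.13, -4.05 and -4.05 in that order of strains. On glucose the call of ∆Tgxyr1 (-2.04) was lost without WT on glucose replicate 1 (-1.95), WT on glucose replicate 2 (-2.00) or ∆Tgxyr1 on glucose replicate 1 (-1.94). On Avicel at 72 h its call in ∆Tgxyr1 (-2.09) was lost without WT on Avicel at 72 h replicate 2 (-1.44) or ∆Tgxyr1 on Avicel at 72 h replicate 3 (-1.97). OPB38108, related to a thermostable alkaline protease, was lower in all 3 mutants on Avicel at 24 h, with a log2 difference of -2.95 ± 0.24, adjusted p = 1.37e-17 in ∆Tgxyr1.

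SUB9 (OPB41391) was also lower in all 3 mutants. On xylan at 4 h it had 6.05, 2.95 and 3.21 RPKM in ∆Tgxyr1, 8.19, 4.45 and 8.13 RPKM in ∆Tgace1 and 1.85, 1.64 and 0.486 RPKM in ∆Tgace2, against 134, 136 and 131 RPKM in WT. The smallest of these differences was that of ∆Tgace1 (-4.13 ± 0.39, adjusted p = 4.83e-14). On xylan at 24 h the direction was the other in ∆Tgxyr1, with 7.07, 6.67 and 11.9 RPKM, against 0.429, 0.153 and 0.638 RPKM in WT (2.74 ± 0.39, adjusted p = 1.1e-08). The oligopeptidase OPB42000 was lower in all 3 mutants on Avicel at 24 h, and in ∆Tgace1 its difference of -2.40 became -1.83 without ∆Tgace1 on Avicel at 24 h replicate 1.

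**Figure D5:**
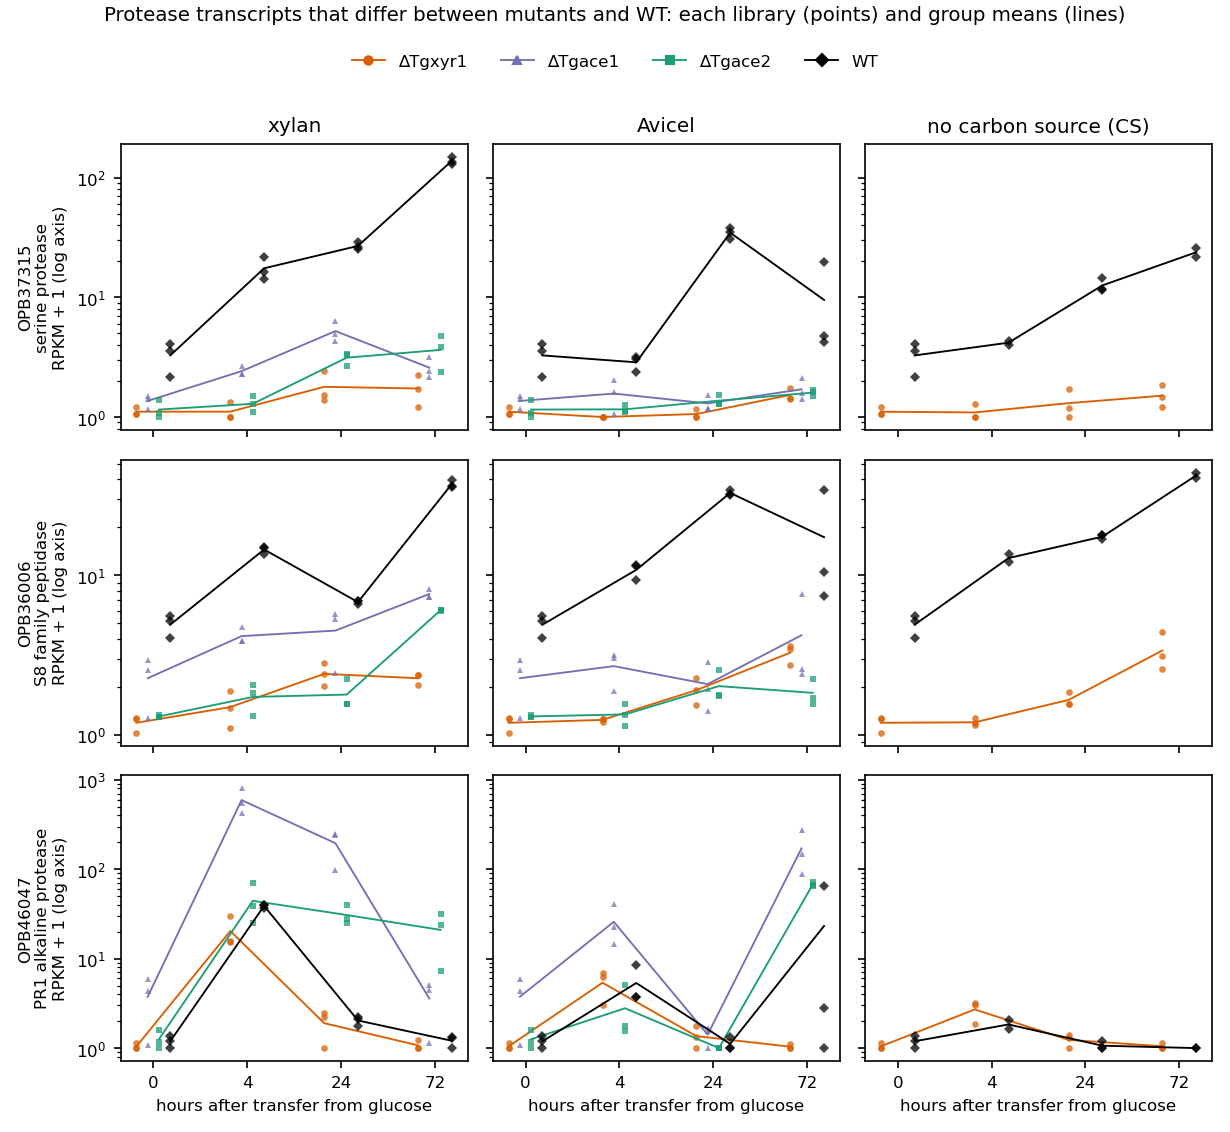
RPKM + 1 (log axis) of the serine protease OPB37315, the S8 peptidase OPB36006 and the PR1-like alkaline protease OPB46047 against hours after transfer (evenly spaced, not to scale), by medium, with 1 point per library and lines through the group means of ∆Tgxyr1, ∆Tgace1, ∆Tgace2 and WT. OPB37315 and OPB36006 run below WT in the mutants, and OPB46047 runs highest in ∆Tgace1 on xylan at 4 h, at 800.0, 421 and 554 RPKM.

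On glucose only dipeptidyl peptidase 5 (OPB38903) was lower in all 3 mutants. It had 1.17, 1.16 and 0.673 RPKM in ∆Tgxyr1, 4.29, 2.58 and 1.10 RPKM in ∆Tgace1 and 2.24, 1.96 and 16.3 RPKM in ∆Tgace2, against 69.9, 77.4 and 77.3 RPKM in WT. No mutant library reached a WT library, and the log2 differences were -5.25 ± 0.48, adjusted p = 3.18e-14 in ∆Tgxyr1, -4.47 ± 0.48, adjusted p = 1.06e-11 in ∆Tgace1 and -3.79 ± 0.48, adjusted p = 3.29e-09 in ∆Tgace2. After the transfer the gene was called against WT in none of the mutants. The other annotated dipeptidyl peptidase 5 that passed the limits in all 3 mutants, OPB36777, went the other way: on xylan at 72 h it had 32.95, 35.5 and 38.8 RPKM in ∆Tgxyr1, 10.6, 8.08 and 15.6 RPKM in ∆Tgace1 and 21.2, 20.03 and 18.1 RPKM in ∆Tgace2, against 1.10, 1.33 and 0.638 RPKM in WT. Every mutant library was above every WT library, and ∆Tgxyr1 differed from WT by 4.19 ± 0.47, adjusted p = 5.19e-12.

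The burst at 4 h was still seen in the mutants. Of the 18 members higher at 4 h in all 3 media of WT, 15 were higher than the strain's own 0 h libraries in all 3 media in ∆Tgxyr1, where 5.72% of all genes were. In ∆Tgace1 17 of the 18 (4.89% of all genes) and in ∆Tgace2 12 of the 18 (3.93%) were higher at 4 h on both xylan and Avicel. Of the 287 genes chosen in the same way, 72.8% were so in ∆Tgxyr1, 71.4% in ∆Tgace1 and 64.1% in ∆Tgace2. The trypsin-like protease OPB36132 had 6091, 7407 and 5259 RPKM in ∆Tgxyr1, 16306, 16536 and 12460.5 RPKM in ∆Tgace1 and 9701, 7991 and 4746 RPKM in ∆Tgace2 on xylan at 4 h, against 9047, 7390.0 and 8459 RPKM in WT, and was called in none. On Avicel at 4 h its ∆Tgace2 libraries held 6759, 887 and 1387 RPKM, of which replicates 2 and 3 were below every WT library (4168, 6442 and 5536 RPKM). The same 2 libraries were low for OPB37691, at 399.5, 39.7 and 71.1 RPKM in ∆Tgace2, against 1037, 1264 and 1024 RPKM in WT (-3.39 ± 0.69, adjusted p = 8.69e-05). Among these ∆Tgace2 libraries only replicate 1 correlated better with another group (0.980, ∆Tgace2 on xylan at 4 h) than with its own (0.967). For OPB42272 the corresponding call (-2.76) became -1.84 without ∆Tgace2 on Avicel at 4 h replicate 2. The elastinolytic metalloproteinase OPB40519 was lower in ∆Tgace2 at 4 h on both media, with 60.9, 47.2 and 17.4 RPKM on xylan, against 268, 142 and 309.6 RPKM in WT (-2.59 ± 0.50, adjusted p = 2.84e-05).

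The aspartic endopeptidase OPB44618, named after its values were seen, exceeded WT at 4 h in all 3 mutants. On Avicel at 4 h it had 1041, 751 and 1075 RPKM in ∆Tgxyr1, 339, 695 and 322 RPKM in ∆Tgace1 and 833, 98.4 and 186 RPKM in ∆Tgace2, against 43.1, 59.3 and 51.7 RPKM in WT. No mutant library overlapped WT, with 4.19 ± 0.46, adjusted p = 1.31e-11 in ∆Tgxyr1. On glucose it had 127, 126 and 14.9 RPKM in ∆Tgace1, where replicate 3 stood apart, and 36.9, 42.1 and 43.1 RPKM in ∆Tgace2, against 4.69, 5.49 and 4.73 RPKM in WT. Both were called. OPB46440 took opposite directions by time in each mutant: on xylan at 4 h it had 28.7, 6.99 and 22.8 RPKM in ∆Tgxyr1, against 0.355, 0.728 and 0.922 RPKM in WT (3.43 ± 0.39, adjusted p = 2.09e-11). At 24 h it was listed at 0 in the 3 ∆Tgxyr1 libraries, against 12.3, 2.34 and 17.4 RPKM in WT.

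In ∆Tgxyr1 on xylan at 24 h, several members that WT held high on Avicel and under CS, but not on xylan, stood above WT. OPB37691 had 62.4, 68.97 and 96.7 RPKM in ∆Tgxyr1, against 0.676, 0.289 and 1.05 RPKM in WT (5.53 ± 0.69, adjusted p = 2.46e-10). The aspartyl protease OPB39078 had 36.1, 47.3 and 55.9 RPKM, against 1.92, 2.46 and 1.85 RPKM in WT (3.93 ± 0.45, adjusted p = 1.58e-11). Both pairs of groups were free of overlap, and in RPKM the levels in ∆Tgxyr1 lay within or above the range of WT on Avicel at 24 h. Summed RPKM was 3065770, 2761810 and 2601360 in these ∆Tgxyr1 libraries, against 1188380, 1026980 and 1011560 in WT on Avicel. The order against WT on Avicel therefore need not hold as a share of that sum. The aspartic protease OPB40378 and the tripeptide peptidase OPB45864 were lower instead. OPB40378 had 4.26, 5.97 and 2.33 RPKM, against 76.2, 60.1 and 81.2 RPKM in WT (-3.88 ± 0.48, adjusted p = 1.98e-10). OPB45864 had 0.843, 0.124 and 0.513 RPKM, against 52.1, 34.9 and 67.1 RPKM in WT (-5.11 ± 0.71, adjusted p = 5.86e-09). The aspartic peptidase OPB36280 was called lower at 24 h too (-2.68), but that call was lost on leaving out WT on xylan at 24 h replicate 1 (-2.58) or 3 (-2.53), or any 1 of the 3 ∆Tgxyr1 libraries (-2.71, -2.66 and -2.66). On xylan at 72 h it had 7.90, 7.93 and 4.44 RPKM, against 611, 504 and 574 RPKM in WT (-6.22 ± 0.86, adjusted p = 3.65e-09).

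Higher in ∆Tgxyr1 were also the aspartyl protease OPB38613 and the abundant OPB37474 and OPB35950. OPB38613 had 222, 159.7 and 167 RPKM on xylan at 72 h in ∆Tgxyr1, against 11.7, 7.94 and 9.77 RPKM in WT (4.09 ± 0.27, adjusted p = 6.28e-22), and was higher in 5 of the 10 conditions. Of these, the call on glucose became 1.76 without WT on glucose replicate 1, 1.80 without WT on glucose replicate 2 and 1.94 without ∆Tgxyr1 on glucose replicate 1, and that on Avicel at 72 h became 1.74 without WT on Avicel at 72 h replicate 1. OPB37474 had 4750.1, 3064 and 6407 RPKM on Avicel at 24 h in ∆Tgxyr1, against 635, 632 and 462 RPKM in WT (2.99 ± 0.39, adjusted p = 1.14e-09). As a share of summed RPKM, its means there were closer, at 0.164% in ∆Tgxyr1 and 0.0536% in WT. OPB35950 had 794, 676 and 654 RPKM under CS at 72 h, against 68.7 and 63.98 RPKM in WT (3.39 ± 0.46, adjusted p = 4.87e-09). In ∆Tgace1 the last 2 were lower on xylan at 72 h: OPB35950 had 284, 93.3 and 243 RPKM, against 4229, 3989.7 and 4279.9 RPKM in WT (-4.48 ± 0.41, adjusted p = 2.7e-15).

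The PR1-like alkaline protease OPB46047 had the largest called difference above WT of any member in ∆Tgace1. On xylan it had 800.0, 421 and 554 RPKM at 4 h and 237, 97.8 and 247 RPKM at 24 h in ∆Tgace1, against 38.6, 35.8 and 39.2 RPKM and 1.22, 0.782 and 1.10 RPKM in WT. The differences were 3.88 ± 0.63, adjusted p = 5.96e-07 at 4 h and 6.47 ± 0.63, adjusted p = 6.94e-14 at 24 h, without overlap. In ∆Tgace2 it had 38.8, 23.7 and 26.7 RPKM at 24 h (3.89 ± 0.63, adjusted p = 9.85e-07) and 30.7, 22.9 and 6.31 RPKM at 72 h, against 0, 0.302 and 0.321 RPKM in WT at 72 h. In ∆Tgxyr1 it had 1.24, 1.46 and 0 RPKM on xylan at 24 h, which overlapped WT. The vacuolar carboxypeptidase OPB41211 was raised early and lowered late in ∆Tgace1: on xylan it had 131, 165 and 138 RPKM at 4 h, against 4.31, 5.19 and 4.97 RPKM in WT (4.64 ± 0.27, adjusted p = 9.52e-24). At 72 h it had 1.96, 0.767 and 1.61 RPKM, against 39.5, 32.9 and 51.4 RPKM in WT (-4.12 ± 0.27, adjusted p = 6.29e-22).

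Whether a mutant's change at 24 h from its own 0 h differed from that of WT was tested as an interaction, with the limits on p and fold alone. In ∆Tgxyr1, 25 members were called on xylan (12.5% of all genes), 25 on Avicel (15%) and 13 under CS (10.2%). In ∆Tgace1, 8 were called on xylan (5.38%) and 22 on Avicel (9.65%), and in ∆Tgace2 7 on xylan (2.32%) and 18 on Avicel (11%). The count of 8 became 16 without ∆Tgace1 on xylan at 24 h replicate 2 and 13 without ∆Tgace1 on glucose replicate 3.

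Shares of summed RPKM are given with the standard deviation (SD, n = 3) after the ± sign. The pair of CS libraries at 4 h is given as both values. The members' share of all summed RPKM was highest at 4 h in WT. In WT it was 1.51 ± 0.086% on xylan, 1.30 ± 0.12% on Avicel and 1.20 and 1.15% under CS at 4 h, against 0.591 ± 0.020% at 0 h. The 4 h libraries all lay above those at 0 h, and by 24 h the share was 0.609 ± 0.073% on xylan, 0.677 ± 0.042% on Avicel and 0.694 ± 0.035% under CS. On xylan at 4 h it was 0.942 ± 0.14% in ∆Tgxyr1, 2.05 ± 0.20% in ∆Tgace1 and 1.25 ± 0.24% in ∆Tgace2. In the same order of strains it was 0.779 ± 0.060%, 0.702 ± 0.16% and 0.715 ± 0.083% at 0 h. These shares are a description, with no test. OPB36132 and OPB37474 carried much of the 4 h values, with means of 0.527% and 0.339% in WT on xylan. Without both genes the WT libraries held 0.637, 0.576 and 0.706% on xylan at 4 h, against 0.482, 0.460 and 0.522% at 0 h. In ∆Tgxyr1 the rest was lower at 4 h, at 0.460, 0.508 and 0.438% on xylan, against 0.655, 0.735 and 0.759% at 0 h. In ∆Tgace1 and ∆Tgace2 it overlapped between xylan at 4 h and 0 h.

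Of the genes that take up the products, 12 of 14 listed peptide transporters and 38 of 40 listed amino acid permeases were tested. At 24 h, 3 peptide transporters were higher (6.88% of all genes) and 4 lower (7.05%) than at 0 h in WT on Avicel, 3 higher (5.97%) and 4 lower (6.36%) under CS, and 1 higher (4.58%) and 2 lower (3.14%) on xylan. At 4 h, 2 were higher (6.33%) and 3 lower (4.23%) on xylan, 2 higher (4.19%) and 2 lower (2.81%) on Avicel, and 3 higher (3.78%) and 2 lower (3.30%) under CS. At 72 h, 3 were higher (8.94%) and 4 lower (7.44%) on xylan, 2 higher (2.85%) and 1 lower (2.21%) on Avicel, and 4 higher (7.62%) and 4 lower (10.6%) under CS. Of the amino acid permeases, set against the same shares of all genes, 4 were higher and 4 lower on xylan, 8 higher and 5 lower on Avicel, and 6 higher and 3 lower under CS at 4 h. At 24 h, 4 were higher and 2 lower on xylan, 5 higher and 10 lower on Avicel, and 8 higher and 10 lower under CS. At 72 h, 7 were higher and 8 lower on xylan, 3 higher and 3 lower on Avicel, and 5 higher and 8 lower under CS.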

How the data were processed

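Polyadenylated RNA of 100 mycelial samples was sequenced as paired reads on an Illumina HiSeq. The authors filtered reads with FASTX-Toolkit, aligned them with TopHat2 and deposited 1 table of RPKM values per gene and library, normalized with Cuffnorm. Tool versions, the annotation release and the normalization method set in Cuffnorm are not given in the sources used here. The table gives no read counts, so the depth of each library is unknown and no counting interval is given.

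Groups were taken from the sample labels. RPKM values were analysed as log2(RPKM + 1) in R 4.3.3 with limma 3.58.1 (trended empirical Bayes, 34 group means, residual degrees of freedom 66). The filter required more than 1 RPKM in 2 or more libraries and left 10026 genes. Calls followed the limits on p (0.01), fold (2 on the log2 scale) and level (2 RPKM) stated in the report. Differences between the responses of a mutant and WT at 24 h were tested as interactions, with the limits on p and fold alone. Tables and figures were made with Python 3.11.15, pandas 2.3.3, numpy 2.4.6 and matplotlib 3.10.9. The fit was tested on simulated data.

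The genes named were, for each 24 h comparison of WT with 0 h and of a mutant with WT, up to 8 called rises and 8 falls without overlap, the 12 members of highest mean, up to 4 members per class by their largest difference in WT, and members at 0 throughout. Others are marked in the text. The members and lists were chosen with earlier results of these data known. Peptide transporters were listed by their annotation, with OPT required as a whole word in capitals. Alternatives were other pseudocounts, no filter, median scaling, array weights, a replicate block, fits of the compared groups alone, leaving out single libraries and, chosen after seeing the data, leaving out WT on Avicel at 72 h. No sequences are shown, as no genome was used here.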

Additional observations from a re-analysis of the deposited data

Results flagged for a closer look

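Over the 7 comparisons of a mutant's change at 24 h with that of WT, limma's interaction test called 118 differences in 55 members. The 13 differences above 4 on the log2 scale among the members named by rule follow, each a mutant's difference from its own 0 h minus that of WT. All comparisons with 1 strain share its libraries at 0 h.

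Dipeptidyl peptidase 5 (OPB38903) made up 7 of them. Its change differed from WT in ∆Tgxyr1 by 4.77 ± 0.68 (SE), adjusted p = 3.05e-08 on xylan, by 6.26 ± 0.68 (SE), adjusted p = 1.29e-11 on Avicel and by 6.42 ± 0.68 (SE), adjusted p = 1.18e-11 under CS. In ∆Tgace1 the values were 5.19 ± 0.68 (SE), adjusted p = 1.52e-08 on xylan and 5.15 ± 0.68 (SE), adjusted p = 1.11e-08 on Avicel. In ∆Tgace2 they were 4.53 ± 0.68 (SE), adjusted p = 8.2e-07 on xylan and 4.84 ± 0.68 (SE), adjusted p = 5.43e-08 on Avicel. In each case the gene was called lower than in WT on glucose and not at 24 h.

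In ∆Tgxyr1 on xylan the change of the alkaline proteinase OPB37691 exceeded that of WT by 5.87 ± 0.98 (SE), adjusted p = 1.36e-06, and that of the dipeptidyl peptidase 5 OPB36777 by 5.09 ± 0.66 (SE), adjusted p = 3.15e-09. On Avicel the change in ∆Tgxyr1 exceeded that of WT by 4.38 ± 0.56 (SE), adjusted p = 1.63e-09 for OPB37368 (Aspartyl protease), by 4.14 ± 0.56 (SE), adjusted p = 6.21e-09 for the M48 peptidase OPB37474 and by 4.34 ± 1.21 (SE), adjusted p = 0.00216 for the aspartic peptidase OPB36280. The PR1-like protease OPB46047 in ∆Tgace1 on xylan differed from WT by 5.12 ± 0.89 (SE), adjusted p = 8.57e-06.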

How the results depend on the processing

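Of the counts of members called over all conditions, those of WT kept within 1.5 times of their value under every alternative. The count of members higher in ∆Tgace1 than in WT (22) became 34 with a pseudocount of 0.1 and 14 with a pseudocount of 2, and that of members higher in ∆Tgace2 (11) became 20 with a pseudocount of 0.1. The count of members lower in ∆Tgace2 (14) became 9 when each fit held only the libraries compared. Leaving out single libraries gave 32 to 39 members higher and 25 to 34 lower in ∆Tgxyr1, 20 to 27 and 19 to 25 in ∆Tgace1, and 10 to 13 and 13 to 16 in ∆Tgace2. For WT it gave 36 to 39 higher and 12 to 14 lower on xylan, 28 to 30 and 9 to 10 on Avicel, and 30 to 32 and 15 to 17 under CS. Same-numbered libraries did not deviate together in all pairs in any of 63 comparisons, so the replicate numbers were not taken as pairs. None of these set later times of the same medium against each other. The study drew broth at each sampling time, so such libraries may come from the same flasks. The model took them as independent. With a replicate block the counts were 37 and 12 on xylan, 29 and 9 on Avicel, 30 and 16 under CS, 33 and 27 in ∆Tgxyr1, 22 and 22 in ∆Tgace1, 11 and 14 in ∆Tgace2, and 118 called interactions. Of 428 differences of named members none reversed. Calls were lost for 65 with a pseudocount of 2, 12 with a pseudocount of 0.1, 72 with only the compared groups in the fit, 28 with array weights, 6 with median scaling, 2 with the block and 1 without the filter. Without the 3 WT libraries on Avicel at 72 h, an alternative chosen after seeing the data, 0 of the 399 that could be fitted were lost. Leaving out single libraries lost 142 of 2492 repeats of these calls. The causes were not tested. Without read counts, the precision at low RPKM is unknown.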
